A study of Mus musculus with 2 samples.

Results

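The MHC class II genes were followed across the cell classes of Lewis lung carcinoma (LLC) tumors. The set consists of 8 genes, H2-Aa, H2-Ab1, H2-Eb1, H2-DMa, H2-DMb1, H2-DMb2, H2-Oa and Ciita, found by symbol among the 32285 genes counted, and all 8 had UMIs (unique molecular identifiers, each standing for 1 captured transcript) in both libraries. LLC is a lung carcinoma cell line that grows in C57BL/6 mice. The sGC Ctr library came from Gucy1b1 flox/flox mice and the sGC ∆PC library from Cspg4-CreERT2::Gucy1b1 flox/flox mice, in which tamoxifen removes the β1 subunit of soluble guanylate cyclase (sGC), the nitric oxide receptor, from cells that express the Cspg4 (NG2) gene, in tumors mainly pericytes. Both genotypes carried the floxed alleles, and all mice were given tamoxifen (5 doses, at 4 weeks) and then LLC cells under the skin (at 8 weeks). Tumors were dissected 2 weeks later and 3 tumors of a genotype were pooled into 1 library, so each condition was measured once. No difference between the libraries could be tested: intervals below are exact 95% intervals for counting error only, and a difference between tumors, mice or library preparations cannot be told apart from one between genotypes. The deletion is in pericytes, so every other cell class was compared as a neighbor of the cells with the deletion.

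MHC class II molecules are heterodimers that hold peptides from ingested material at the cell surface and show them to CD4 T cells. H2-Aa and H2-Ab1 encode the α and β chains of I-A, and H2-Eb1 encodes the β chain of I-E, which stays without its α chain in C57BL/6 mice because that strain does not express the partner gene. H2-DMa pairs with H2-DMb1 or H2-DMb2 to form DM, the chaperone that exchanges the invariant chain remnant for peptide, and H2-Oa forms with H2-Ob the DO molecule, which restrains DM in B cells and some dendritic cells. Ciita encodes the transactivator that switches on the other genes by joining the RFX, CREB and NF-Y factors on the X and Y boxes of their promoters. Dendritic cells and B cells express the set constitutively, macrophages raise it under interferon-gamma, and endothelial cells and fibroblasts can be brought to express it by the same cytokine.

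On the GRCm38 assembly 7 of the 8 genes lay together on chromosome 17, from H2-Oa (34092340-34095234, forward strand) over H2-DMa (34119541-34139101), H2-DMb2 (34143307-34151555), H2-DMb1 (34153072-34160230), H2-Ab1 (34257689-34269419) and H2-Aa (34282744-34287823, reverse strand) to H2-Eb1 (34305867-34316674). Ciita lay alone on chromosome 16 (10480059-10528418). No other annotated gene overlapped H2-Aa, H2-Ab1, H2-DMb1 or H2-DMb2, whereas Gm20513 overlapped H2-Eb1, BC051537 overlapped H2-Oa, Dexi overlapped Ciita and Brd2 overlapped H2-DMa, each on the opposite strand. H2-DMa also overlapped CR974462.3 on its own strand and CR974462.4 and Gm20493 on the other. H2-DMb1 and H2-DMb2 are close copies, and reads that match both were not counted, so the split between them is uncertain. RefSeq promoter sequence (GRCm38.p6) was at hand for 6 of the 8 genes, all but H2-Ab1 and Ciita. The 250 bases before each start were searched on both strands for the Y box letters CTGATTGG and for an X box core written as CCNAGNNAC, which do not overlap each other. The Y box letters stood in 3.83% and the X box core in 14.5% of all 32851 mouse promoters of that length, so a match to the second alone is common. The letters CTGATTGG began 51 bases before the start of H2-Aa, 62 before that of H2-Eb1 and 46 before that of H2-Oa, and a core began 80 bases before the start of H2-Oa and 98 before that of H2-DMb1. A core also stood 180 bases before H2-Aa and 192 before H2-DMb2, outside the stretch printed here, and the windows of the 2 H2-DMa starts held neither. Boxes that differ from the written letters were not found by this search. A missing match is therefore not a missing box, and a matched core need not be the box in use. The last 150 bases before the start are shown for the 4 genes with a match in that stretch, 5′ to 3′ on the strand of the gene, with the matched letters in capitals. The RefSeq starts of H2-Oa and H2-DMb1 lie downstream of the gene starts given above.
H2-Aa, chr17:34287824-34287973, reverse strand: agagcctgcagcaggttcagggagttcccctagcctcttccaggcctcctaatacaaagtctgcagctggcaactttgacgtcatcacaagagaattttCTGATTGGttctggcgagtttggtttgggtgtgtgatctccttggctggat
H2-Eb1, chr17:34305717-34305866, forward strand: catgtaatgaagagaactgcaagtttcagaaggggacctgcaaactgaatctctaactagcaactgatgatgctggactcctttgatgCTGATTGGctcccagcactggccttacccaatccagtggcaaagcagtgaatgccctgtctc
H2-Oa, chr17:34092229-34092378, forward strand: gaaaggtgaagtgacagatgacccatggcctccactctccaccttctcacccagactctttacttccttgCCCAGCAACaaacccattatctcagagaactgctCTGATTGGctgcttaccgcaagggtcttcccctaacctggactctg
H2-DMb1, chr17:34153041-34153190, forward strand: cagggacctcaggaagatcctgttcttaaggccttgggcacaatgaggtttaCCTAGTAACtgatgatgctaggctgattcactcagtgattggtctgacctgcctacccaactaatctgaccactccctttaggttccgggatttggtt
The Y box letters recurred at a similar distance from the RefSeq start in a classical α chain, a classical β chain and the DO subunit. This is a description of the letters and not of binding, and the distance depends on the start used.

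Depth differed between the libraries. The sGC Ctr library held 15007 barcodes and the sGC ∆PC library 25631, and 12220 and 22498 of them passed the filters with a median of 35776.5 and 8685 UMIs per cell. Levels are given as CPM, the UMIs of a gene scaled to 1000000 UMIs of a cell class. Cells were put into 12 classes and macrophages further into 5 states by marker genes, none of which was an MHC class II gene or Cd74, and cells that passed more than 1 gate were set aside (179 and 558). Between 4 and 10 markers defined each class the text turns on, and every one was found in at least 25% of the cells for macrophages (8 of 8 markers), endothelial cells (ECs, 10 of 10), fibroblasts (8 of 8) and cancer cells (4 of 4), against 6 and 5 of 8 for dendritic cells, a list that spans several subsets. The gates gave 2091 and 2719 macrophages, 403 and 402 monocytes, 86 and 96 dendritic cells, 66 and 74 ECs, 41 and 54 pericytes, 122 and 320 fibroblasts and 7060 and 12045 cancer cells in sGC Ctr and sGC ∆PC. Gucy1b1, the deleted gene, was at 124 CPM (59 UMIs) in sGC Ctr pericytes and 28.6 CPM (12 UMIs) in sGC ∆PC pericytes. The libraries had 98 kept barcodes in common.

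Dendritic cells held the highest level of every member among the 9 classes plotted, and monocytes and macrophages came next for the classical chains, H2-DMa, H2-DMb1 and Ciita, with fibroblasts, pericytes, ECs and cancer cells far lower on the plot of levels. For H2-Oa and H2-DMb2, counts outside dendritic cells were too low for such an order: in sGC ∆PC, H2-Oa was at 1.59 CPM (2 UMIs) in ECs and 0.477 CPM (11 UMIs) in macrophages. B cells (8 and 5 cells) and natural killer cells (16 and 19) were not plotted. Of 14458 and 23262 UMIs, B cells held 13 and 15 of H2-DMb2, 4 and 6 of H2-Oa and 7 and 1 of Ciita. These few UMIs put H2-DMb2 and H2-Oa above the dendritic level in both libraries, and Ciita in sGC Ctr alone. Natural killer cells had the classical chains at 6628 and 7910 CPM, and at 66.3 and 189 CPM without their 2 leading cells. H2-Aa was at 7512 CPM (7319-7709) in sGC Ctr dendritic cells and 569 CPM (560-579) in macrophages of the same library. In sGC ∆PC it was at 5695 CPM (5521-5872) and 966 CPM (953-979). The dendritic level of H2-Aa was therefore 13.2-fold that of macrophages in sGC Ctr and 5.90-fold in sGC ∆PC. H2-Ab1 gave nearly the same folds (13.1 and 5.96), as did H2-Eb1 (14.4 and 6.37). Monocytes, at 763 and 797 CPM of H2-Aa, lay above macrophages in sGC Ctr and below them in sGC ∆PC.

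**Figure D1:**
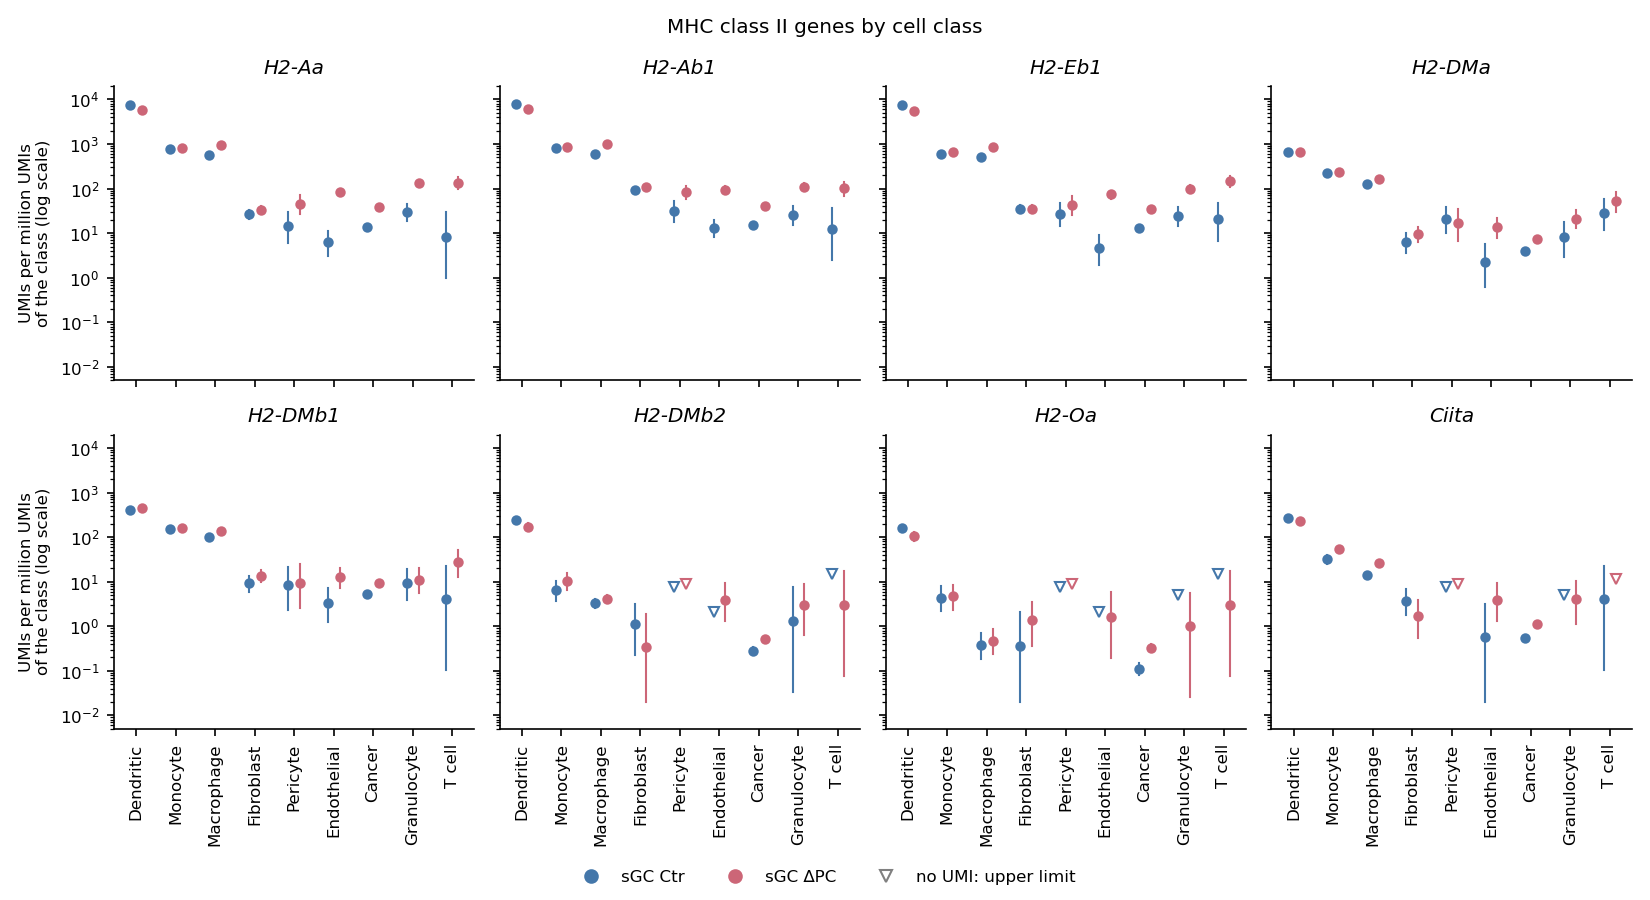
Level of each MHC class II gene (CPM, log axis) in 9 cell classes of the sGC Ctr (blue) and sGC ∆PC (red) libraries; points are 1 library each, bars are exact 95% counting intervals, and open triangles mark the upper limit where no UMI was counted. Dendritic cells stand highest in all 8 panels, and for H2-Oa they stand at 160 and 104 CPM against 0.379 and 0.477 in macrophages.

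The members did not keep one proportion between dendritic cells and macrophages. The DM chains were the least different: H2-DMa was 5.38-fold and 3.97-fold higher in dendritic cells than in macrophages, and H2-DMb1 4.07-fold and 3.15-fold. H2-DMb2, at 240 and 173 CPM in dendritic cells, was 73.7-fold and 41.4-fold higher than in macrophages. There were thus 0.587 UMIs of H2-DMb2 per UMI of H2-DMb1 in sGC Ctr dendritic cells (0.486-0.706), but 0.0324 in macrophages (0.0258-0.0401). The same ratio in sGC ∆PC was 0.391 and 0.0298. H2-Oa, the DO subunit that restrains DM, had the highest fold of dendritic cells over macrophages, 423-fold and 219-fold. Its 122 and 75 UMIs in dendritic cells made 35.2% and 20.1% of all its UMIs, from 0.704% and 0.427% of the cells. In macrophages it had 10 and 11 UMIs in all, in 8 of 2091 and 10 of 2719 cells. After every cell was thinned to 2000 UMIs no macrophage of 2075 and 2121 had one, which at that depth allows a share of cells with a UMI of up to 0.145% and 0.141%. The share of thinned dendritic cells with an H2-Oa UMI was 27.2% and 21.3%. Ciita was 19.3-fold and 8.75-fold higher in dendritic cells, above the 13.5-fold and 6.07-fold of the summed classical chains, at 266 and 228 CPM against 13.8 and 26.1 CPM in macrophages.

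Macrophages of the sGC ∆PC library held more of the classical chains. H2-Aa was at 569 CPM in sGC Ctr and 966 CPM in sGC ∆PC, a log2 ratio of 0.76 (0.73-0.79). H2-Ab1 was at 600 and 1007 CPM (log2 ratio 0.75) and H2-Eb1 at 509 and 870 CPM (0.77), so the 3 chains differed by the same factor within counting error. Summed, they stood at 1678 and 2842 CPM, a 1.69-fold difference. Ciita was higher by a log2 ratio of 0.92 (0.73-1.11), from 365 and 601 UMIs. The DM chains differed less, with 0.40 (0.33-0.47) for H2-DMa and 0.48 (0.40-0.55) for H2-DMb1, and their intervals lay below those of the classical chains. H2-DMb2 (86 and 96 UMIs) and H2-Oa (10 and 11 UMIs) had intervals that included 0. All 7 members with at least 50 UMIs in macrophages were higher in sGC ∆PC, with a median log2 ratio of 0.75 against -0.06 over all genes so counted, but none was 2-fold higher, a size that 0.96% of those genes reached.

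The difference also appeared as more macrophages with the transcripts. After thinning, 24.9% and 39.4% of macrophages had an H2-Ab1 UMI and 20.2% and 36.8% an H2-Aa UMI. Among granulocytes, which were taken to lack both, 5.44% and 10.9% had an H2-Ab1 UMI (median depth before thinning 2089 and 2191 UMIs, against 11553 and 6269 in macrophages). The level was uneven within the class: the tenth of macrophages with the most classical UMIs held 82.7% of them in sGC Ctr and 77.5% in sGC ∆PC. UMIs of the dendritic markers in macrophages moved with the result, at 3.26 CPM in sGC Ctr and 12.8 CPM in sGC ∆PC, against 2347 and 2323 CPM in dendritic cells, and their part in it was not tested. The macrophage gate also had cells near its limit, with 710 just above and 659 just below in sGC ∆PC, and the log2 ratio of the summed chains was 0.35 when classes were taken from unsupervised clusters instead, and 0.58 when cells were thinned before summing.

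The macrophage states differed in their starting level and in the size of the difference. Folr2 macrophages, which resemble tissue-resident cells and number 574 and 499, had the lowest classical level in sGC Ctr of the 4 states with more than 100 cells in each library, 462 CPM, and stood at 1236 CPM in sGC ∆PC, a log2 ratio of 1.42 (1.36-1.48). Ciita in these cells was at 3.65 CPM (30 UMIs) and 13.5 CPM (76 UMIs), a log2 ratio of 1.88 (1.26-2.54). Gpnmb macrophages (192 and 297 cells), defined by lipid and tissue remodeling genes, had 941 and 1757 CPM of the classical chains, a log2 ratio of 0.90 (0.83-0.97). Their Ciita was at 3.41 CPM (8 UMIs) and 15.3 CPM (53 UMIs). In sGC Ctr 1 of these cells held 607 classical UMIs, 27.5% of those of the state, and 1 held 5 of the 8 Ciita UMIs. Proliferating macrophages (228 and 224 cells) stood higher, at 1271 and 2061 CPM, with a log2 ratio of 0.70 (0.64-0.75), and their Ciita was at 9.44 and 30.3 CPM. The Il1b Ccr2 state (102 and 149 cells), which shares genes with freshly arrived monocytes, had by far the highest level in both libraries, 7772 and 8856 CPM, and the smallest log2 ratio, 0.19 (0.15-0.23). Ciita in that state, at 74.0 and 83.2 CPM, had an interval of its log2 ratio that included 0 (-0.28 to 0.62). The order of these 4 states by classical level was the same in both libraries, and the states with the lower levels had the larger ratios. The sGC Ctr level is the denominator of the ratio, so the link of level and ratio is in part built in. A cell could meet several states, and 1122 and 1699 macrophages met none. In sGC Ctr the leading cell held 10.3% of the classical UMIs of Folr2, 14.0% of proliferating and 4.39% of Il1b Ccr2 macrophages. The ratios of the states were not recomputed without leading cells. The dendritic markers were at 2.79 and 9.38 CPM in Folr2 macrophages and at 10.3 and 56.8 CPM in Il1b Ccr2 macrophages, where the chains differed least. The osteoclast-like state had 4 and 20 cells and is not described further.

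Monocytes showed little of this. The classical chains were at 2165 and 2305 CPM, a log2 ratio of 0.09 (0.04-0.14), and H2-DMa was at 221 and 241 CPM. Ciita was the exception, with 32.1 and 53.9 CPM and a log2 ratio of 0.75 (0.33-1.17). In each library 1 monocyte held 12 and 27 of its 80 and 125 UMIs, and that ratio was not recomputed without leading cells. None of the 6 members counted there was 2-fold higher, against 0.561% of all genes, and 40 of the monocytes in each library held 83.5% and 84.6% of the classical UMIs.

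**Figure D2:**
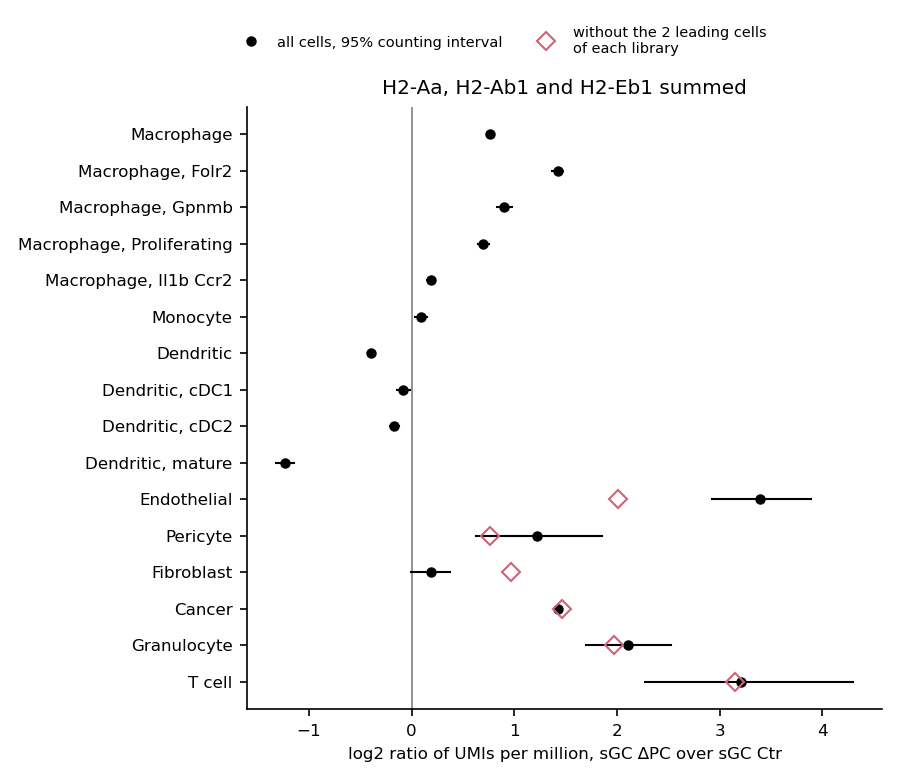
Log2 ratio of the summed H2-Aa, H2-Ab1 and H2-Eb1 level, sGC ∆PC over sGC Ctr, per cell class, macrophage state and dendritic subset; points use all cells with exact 95% counting intervals, and open diamonds, drawn from ECs downwards, leave out the 2 cells with the most UMIs of the chains in each library. Macrophages (0.76) and dendritic cells (-0.40) lie on opposite sides of 0, and for ECs the point moves from 3.39 to 2.01 without 2 cells.

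Dendritic cells went the other way. H2-Aa was at 7512 CPM in sGC Ctr and 5695 CPM in sGC ∆PC (log2 ratio -0.40, -0.46 to -0.34), H2-Ab1 at 7855 and 5999 CPM (-0.39) and H2-Eb1 at 7308 and 5544 CPM (-0.40). H2-DMa (672 and 653 CPM) and H2-DMb1 (409 and 441 CPM) had intervals that included 0. H2-Oa was lower, at 160 and 104 CPM (-0.62, -1.05 to -0.19), and so was H2-DMb2, at 240 and 173 CPM (-0.48, -0.82 to -0.14). Ciita, at 266 and 228 CPM, had an interval that included 0. None of the 8 members was 2-fold lower, a size reached by 0.792% of the genes counted in these cells, and 1.17% were 2-fold higher. The median log2 ratio of the members was -0.39 and that of all genes -0.03.

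The dendritic subsets did not share the difference equally. In cDC1, the subset that takes up dead cells and feeds CD8 T cells (16 and 14 cells), the classical chains were at 23590 and 22280 CPM, a log2 ratio of -0.08 (-0.15 to -0.02). In cDC2 (36 and 45 cells) they were at 28467 and 25319 CPM (-0.17). Mature dendritic cells, which have turned on Ccr7 and switched off new class II synthesis (34 and 37 cells), had 13407 CPM in sGC Ctr and 5713 CPM in sGC ∆PC, a log2 ratio of -1.23 (-1.32 to -1.14). Within that subset H2-Aa was at 5010 and 2268 CPM, H2-Ab1 at 3750 and 1458 CPM and H2-Eb1 at 4647 and 1986 CPM. The subset also differed in proportion, with 0.748 and 0.643 UMIs of H2-Ab1 per UMI of H2-Aa, against 1.25 and 1.20 in cDC1. H2-DMb1 was low in mature cells, at 81.6 and 58.6 CPM against 365 and 653 CPM in cDC1. An H2-Ab1 UMI was found in 19 of 34 and 21 of 37 mature cells, and a classical UMI in 29 and 32 of them. Every cDC1 and cDC2 cell had an H2-Ab1 UMI, so the mature level is an average over cells with and without the chains. With 34 and 37 cells from pools of tumors, the spread between animals is unknown for these values.

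Granulocytes and T cells were taken as classes without class II expression of their own. UMIs there are read as coming from other cells, as free RNA or as another cell in the droplet. Ciita had 0 and 4 UMIs in granulocytes and 1 and 0 in T cells, and whether these cells express class II in the tumors was not tested. The 3 classical chains were at 79.5 CPM (59 UMIs) in sGC Ctr granulocytes and 341 CPM (337 UMIs) in sGC ∆PC granulocytes, a log2 ratio of 2.10 (1.70-2.53). T cells had 41.3 CPM (10 UMIs) and 381 CPM (124 UMIs). All 3 members counted in granulocytes were 2-fold higher in sGC ∆PC, where 1.64% of all genes were. All 3 reached the number of UMIs needed for a ratio through sGC ∆PC alone, so this count is not support for a difference. By the ratios of the summed chains, the 2 classes taken to lack these genes differed between the libraries by more than macrophages did. Every class with a level near theirs is read beside them, on that assumption. A second guide was the level that macrophage RNA would carry into a class, which is the macrophage-marker level of the class as a share of that in macrophages, multiplied by the macrophage level of the gene in the same library. Observed over carried, the summed chains were at 1.54 and 2.51 in granulocytes and 1.35 and 5.17 in T cells. The same reckoning with dendritic markers and dendritic RNA gave 0.129 and 0.759 in T cells, from 8 and 22 dendritic-marker UMIs. In granulocytes it gave 4.13 in sGC ∆PC, and sGC Ctr granulocytes had no dendritic-marker UMI. Where no source is named, the carried level is that of macrophage RNA.

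**Figure D3:**
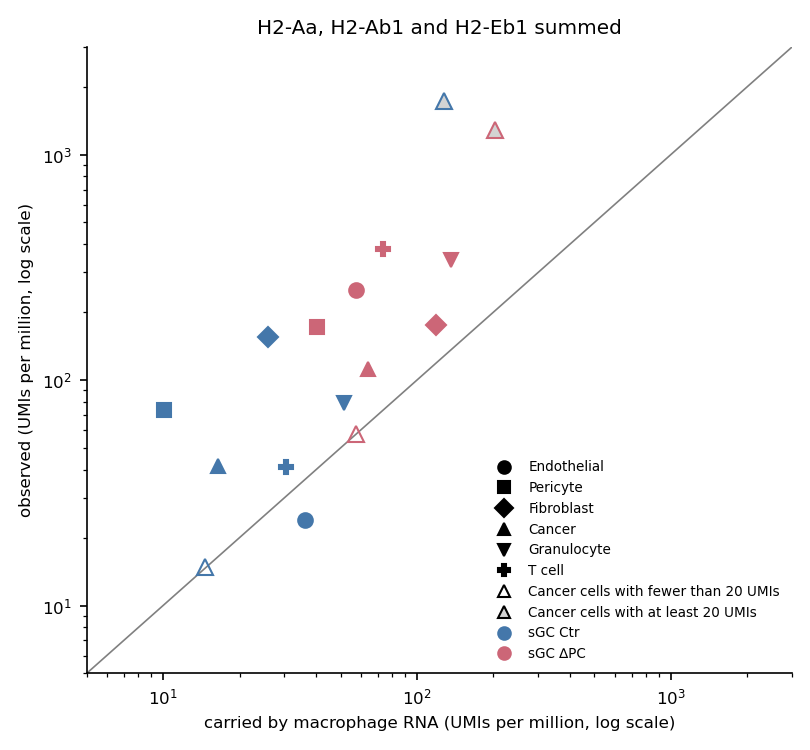
Observed level of the summed H2-Aa, H2-Ab1 and H2-Eb1 UMIs (y axis, CPM, log) against the level that macrophage RNA would carry (x axis, same unit, log) in cell classes of sGC Ctr (blue) and sGC ∆PC (red); the line marks equality, and cancer cells are also drawn split at 20 UMIs of the chains per cell. All cancer cells together lie above the line, at 2.53 and 1.75 times the carried level, and the place of the split cells depends on the limit used.

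In ECs the chains were higher in sGC ∆PC, and a few cells carried the difference. H2-Aa was at 6.24 CPM (11 UMIs) and 82.6 CPM (104 UMIs), H2-Ab1 at 13.1 CPM (23 UMIs) and 93.7 CPM (118 UMIs), and H2-Eb1 at 4.54 CPM (8 UMIs) and 73.9 CPM (93 UMIs). Their sum gave a log2 ratio of 3.39 (2.92-3.89), and all 3 members counted in ECs were 2-fold higher, against 0.989% of all genes. All 3 reached the number of UMIs needed for a ratio through sGC ∆PC alone. Their count past 2-fold is therefore not support for a difference. Of the DM chains, H2-DMa had 4 and 17 UMIs and H2-DMb1 6 and 16, while Ciita had 1 and 5 UMIs. In sGC ∆PC 1 of 74 ECs held 165 of the 315 classical UMIs (52.4%), with EC markers at 28.0 per 10000 UMIs against a class median of 55.2, and with 3 UMIs of dendritic markers and 1 of macrophage markers. The second held 54 UMIs and also 51 macrophage-marker and 137 fibroblast-marker UMIs. Without the leading cell of each library the sum was at 21.9 and 121 CPM, and without the leading 2 at 20.6 and 82.6 CPM, a log2 ratio of 2.01, close to that of granulocytes. Thinning the cells before summing gave 2.68 with all cells.

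The next 3 ECs of sGC ∆PC held 22, 20 and 6 classical UMIs with EC markers at 112, 77.1 and 75.7 per 10000, above the class median, and at most 2 macrophage-marker UMIs each. All 3 had UMIs of interferon-gamma targets, with 212, 200 and 131 UMIs of Cxcl9, a chemokine for T cells, and 20, 54 and 37 of Ubd, a ubiquitin-like protein. The leading EC had 41 UMIs of Cxcl9 and 4 of Ubd, and the second EC had none of Cxcl9, Cxcl10 or Ubd. The first 2 of the 3 also had 45 and 41 UMIs of Cd74, the invariant chain, and the last of the 3 had none. Across the class, 16 of 74 sGC ∆PC ECs had a UMI of Ubd or Cxcl10 and held 231 of the 315 classical UMIs, 165 of these in the leading cell, whereas the 5 of 66 in sGC Ctr held none of 42. These cells were picked out after their values were seen and are a description. Ubd and Cxcl10 are 2 of the 7 interferon-gamma targets listed, and had only 6 and 1 UMIs in sGC Ctr ECs. The count of none of 42 there therefore says little. In all, 3 of the 7 were 2-fold higher, while Iigp1 was at 159 and 189 CPM with an interval that included 0. After thinning, the share of ECs with an H2-Ab1 UMI was 4.76% and 7.94% (median depth 23842.5 and 8839 UMIs), below the 5.44% and 10.9% of granulocytes with overlapping intervals. Granulocytes were shallower before thinning (2089 and 2191 UMIs), and whether ECs as a class express the gene was not tested. Observed over carried level was 0.657 in sGC Ctr and 4.34 in sGC ∆PC, between granulocytes and T cells of the same library in the second. The value for sGC Ctr was above 1 in place of below it under 4 alternatives, such as a log2 of 1.68 with gate limits halved. Of the 4, 1 kept the ECs below the median macrophage-marker level, which sets the carried level, so its rise is in part built in. With dendritic RNA as the source, observed over carried level was 0.189 and 2.50.

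Fibroblasts stood apart by a single chain. H2-Ab1 was at 92.8 CPM (252 UMIs) and 107 CPM (316 UMIs), while H2-Aa was at 26.9 CPM (73 UMIs) and 33.8 CPM (100 UMIs) and H2-Eb1 at 35.3 and 35.5 CPM. There were 3.45 UMIs of H2-Ab1 per UMI of H2-Aa in sGC Ctr (2.65-4.54) and 3.16 in sGC ∆PC (2.52-4.00). The same ratio was 1.05 and 1.04 in macrophages, 1.05 and 1.05 in dendritic cells, 1.14 and 1.05 in cancer cells, and 0.864 and 0.817 in granulocytes. The fibroblast ratio lay outside the intervals of those classes in both libraries, and the part of RNA from other cells in it was not tested. In ECs it was 2.09 (0.979-4.75) and 1.13 (0.864-1.49), so that only the interval of sGC Ctr overlapped that of fibroblasts, and in pericytes it was 2.14 (0.822-6.21) and 1.84 (1.02-3.41), both overlapping. Leaving out the leading fibroblast of sGC Ctr, which held 157 of the 421 classical UMIs in a 41 to 53 to 63 mixture of H2-Aa, H2-Ab1 and H2-Eb1 and had 7 dendritic-marker UMIs, moved the ratio to 6.22 (4.27-9.34). Without the leading cell of sGC ∆PC it was 3.26, but as a mean over cells, which gives shallow cells the same weight as deep ones, its log2 there was 0.84 in place of 1.66.

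Single fibroblasts showed the same imbalance. With a limit of 5 UMIs, chosen after the values were seen, 15 fibroblasts of sGC Ctr had that many of H2-Ab1, and 8 of these had no UMI of H2-Aa or H2-Eb1. In sGC ∆PC it was 4 of 18. Among macrophages it was 1 of 378 and 5 of 644, and among dendritic cells 0 of 68 and 0 of 70. The limit leaves out cells with few UMIs, and counted without it macrophages also had H2-Ab1 more often than H2-Aa. Before thinning, 50.0% and 54.6% of macrophages had an H2-Ab1 UMI, against 30.6% and 47.8% with an H2-Aa UMI. The fibroblasts with H2-Ab1 alone reached 15 and 18 UMIs of it, and together they had 68 and 53 UMIs of H2-Ab1 but only 2 and 5 of Cd74. Only 2 fibroblasts of each library had 5 or more UMIs of H2-Aa, and none of them lacked both other chains. The share of thinned fibroblasts with an H2-Ab1 UMI was 12.6% (7.23-19.9) and 18.4% (13.6-24.1), against 5.44% (2.64-9.77) and 10.9% (7.39-15.4) in granulocytes, with overlapping intervals, while for H2-Aa it was 3.36% and 8.33%, below the 5.98% and 13.7% of granulocytes. In the fibroblasts with no macrophage-marker UMI (16 and 77 cells), H2-Ab1 was at 59.9 CPM (12 UMIs) and 92.4 CPM (31 UMIs), and H2-Aa had 1 and 14 UMIs. Observed over carried level was 10.0 and 2.54 for H2-Ab1, against 3.05 and 0.837 for H2-Aa. With dendritic RNA as the source it was 3.76 and 13.6 for H2-Ab1, against 1.14 and 4.53 for H2-Aa. The latter values rest on 20 and 9 dendritic-marker UMIs. Between the libraries the log2 ratio of the sum in this class was 0.18 (-0.00 to 0.37). None of the 4 members counted was 2-fold higher, against 1.68% of all genes. That ratio was 0.75 without the leading cell of each library and -0.25 with gate limits doubled. Ciita had 10 and 5 UMIs in fibroblasts.

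**Figure D4:**
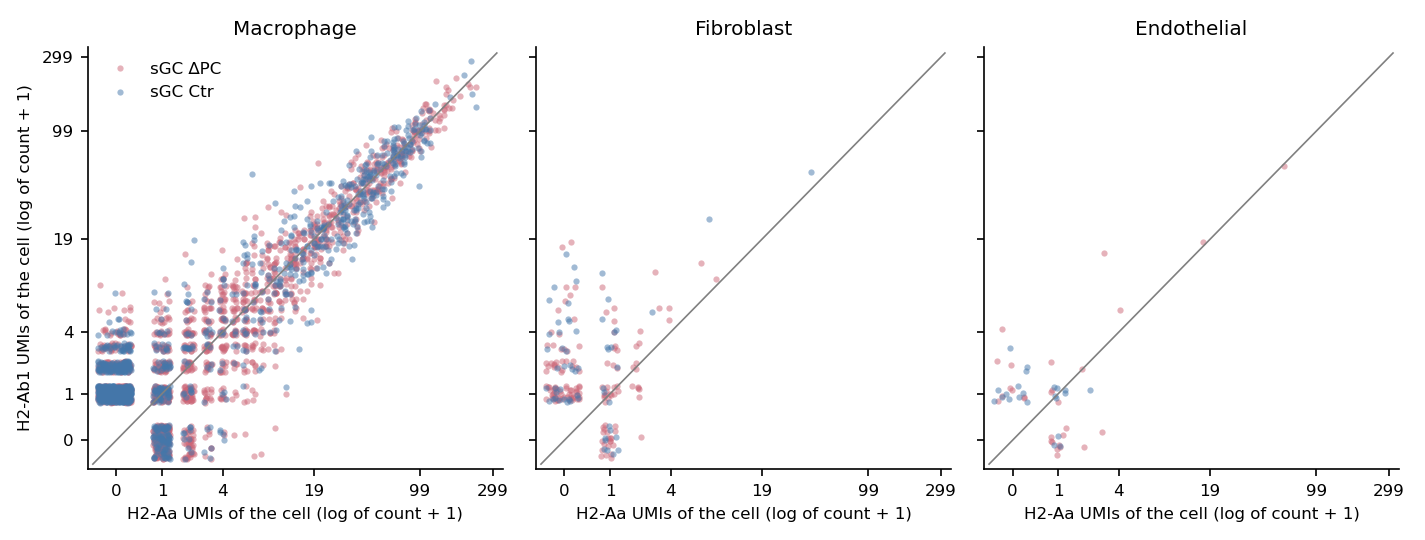
H2-Ab1 UMIs (y axis) against H2-Aa UMIs (x axis) of single macrophages, fibroblasts and ECs with at least 1 UMI of either gene, on log axes of count plus 1 with a small random offset to part equal values; the line marks equality and colors the library. Macrophages with many UMIs follow the line up to more than 200 UMIs, whereas fibroblasts gather at 0 H2-Aa UMIs with up to 18 of H2-Ab1. Some macrophages also lie at 0 H2-Aa UMIs: 1046 of sGC Ctr had an H2-Ab1 UMI and 639 an H2-Aa UMI. In sGC ∆PC it was 1484 and 1300.

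In cancer cells the levels were low, and a small share of the cells held most of the UMIs. H2-Aa was at 13.5 CPM in sGC Ctr and 38.0 CPM in sGC ∆PC (log2 ratio 1.50, 1.45-1.54), H2-Ab1 at 15.3 and 39.9 CPM and H2-Eb1 at 12.7 and 34.0 CPM. For the sum the log2 ratio was 1.43, and 2.25 when cells were thinned before summing. Of the 8 members 5 were at least 2-fold higher in sGC ∆PC, against 3.79% of all genes. Among these 5, H2-Oa (46 and 114 UMIs) passed the limit of 50 UMIs through sGC ∆PC alone. Macrophage markers in cancer cells moved with the summed chains, at 0.979% (sGC Ctr) and 2.25% (sGC ∆PC) of the macrophage level. The summed chains were at 2.53 and 1.75 times the carried level, and at 2.46 and 5.81 times the level that dendritic RNA would carry. With a limit of 20 classical UMIs per cell, set after the values were seen, 90 of 7060 cells (1.27%) held 64.8% of the classical UMIs of the class in sGC Ctr, and 407 of 12045 (3.38%) held 50.7% in sGC ∆PC. The cells under the limit had 14.9 and 57.7 CPM, which is 1.01 and 1.00 times the carried level. These cells were chosen by the UMIs that are then counted, and the ratios depend on the limit, with 0.995 and 0.755 at a limit of 10 and 1.10 and 1.35 at 50. The cells over it had 1724 and 1286 CPM, 13.5 and 6.36 times the carried level, with Ciita at 23.9 and 12.3 CPM and a dendritic-marker UMI in 31.1% and 24.1% of them, against 6.90% and 4.75% of the others. Their median cancer-marker level, 15.8 and 15.6 per 10000 UMIs, was close to that of the others (16.7 and 16.5). Their macrophage markers were at 7.64% and 7.12% of the macrophage level, against 0.873% and 2.03% in the others. Their median depth was 65447 and 21535 UMIs, against 51978 and 15102. The limit is a count, so it stands for a lower level in the deeper cells of sGC Ctr. After thinning, an H2-Ab1 UMI was found in 2.21% and 8.19% of cancer cells (median depth 52224 and 15340 UMIs), below granulocytes in both libraries. Whether the droplets over the limit hold another cell was not tested.

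In cancer cells the DM β chain was out of proportion to the α chain, when set beside macrophages and dendritic cells. H2-DMb1, at 5.44 and 9.27 CPM, was at 5.52 and 2.94 times its carried level, while H2-DMa was at 3.18 and 1.97 times and H2-Aa at 2.42 and 1.75 times. There were 1.40 UMIs of H2-DMb1 per UMI of H2-DMa in sGC Ctr (1.31-1.49) and 1.27 in sGC ∆PC (1.20-1.34), against 0.805 and 0.850 in macrophages and 0.609 and 0.676 in dendritic cells. The fibroblast ratio was 1.47 (0.763-2.90) and 1.43 (0.860-2.40), and the EC ratio 1.50 (0.356-7.23) and 0.941 (0.445-1.98). Those intervals overlapped the ones of cancer cells, so the imbalance is not shown to be particular to cancer cells. In the cancer cells with fewer than 20 classical UMIs the ratio was 1.55 and 1.32. Pericytes, the cells with the deletion, had 35 and 72 classical UMIs (73.4 and 171 CPM, log2 ratio 1.22, 0.62-1.85) and no UMI of H2-DMb2, H2-Oa or Ciita in either library, which allows levels of up to 7.73 and 8.78 CPM. Macrophage markers in pericytes moved with it, at 85.9 and 167 CPM, as did cancer markers, at 111 and 383 CPM. The classical chains of pericytes were at 7.27 and 4.25 times the carried level, from 41 and 70 macrophage-marker UMIs. With dendritic RNA as the source the values were 1.207 and 2.425, from 3 and 4 dendritic-marker UMIs. Where these classical UMIs came from was not tested. In pericytes with no macrophage-marker UMI (21 and 19 cells) the classical chains were at 56.1 and 53.8 CPM.

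Summed over the 8 genes, the sGC Ctr library had 140243 UMIs and the sGC ∆PC library 196902. Macrophages held 36.2% and 37.2% of them, from 17.1% and 12.1% of the cells, and dendritic cells 13.3% and 6.87%, although unsupervised clusters gave dendritic cells 32.3% in sGC Ctr. Cancer cells, more numerous than any other class, held 15.1% and 22.8% in spite of their low level. Cells that passed no gate held 26.8% and 24.7%. Of these, 77 of 1745 and 100 of 5680 had a classical level at or above the dendritic median and held 58.3% and 42.0% of the ungated classical UMIs, and 44 and 49 of them had a UMI of a dendritic marker and 16 and 8 a UMI of a B cell marker. What cells these are was not tested. Of the Ciita UMIs, macrophages held 28.4% and 32.0% and dendritic cells 15.8% and 8.74%.

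The other genes of the pathway were read from a list of 36 genes. In macrophages none of the 35 with enough UMIs was 2-fold higher or lower, against 0.96% and 0.297% of all genes. The interferon-gamma targets leaned the same way as Ciita, with a median log2 ratio of 0.54 over 6 genes. Among them Iigp1, a GTPase of cell defense, was at 33.7 and 59.4 CPM, Gbp2 at 64.3 and 100.2 CPM and Cxcl9 at 221 and 300.0 CPM, while Cxcl10 was slightly lower (155 and 139 CPM). On the route from the cytokine to Ciita, the transcription factor Irf1 (28.1 and 42.3 CPM) was higher, and the receptor chains Ifngr1 (126 and 132 CPM) and Ifngr2 (104 and 96.0 CPM) were close to level. The factors that bind the X and Y boxes had a median log2 ratio of -0.08. Cd74, the invariant chain that fills the groove before peptide, was at 1532 and 2459 CPM, whereas the cathepsins and other enzymes of the compartment were level or lower, with Ctss at 1570 and 1647 CPM and Ifi30 at 839 and 713 CPM. In dendritic cells 1 of 24 pathway genes was 2-fold higher, Cxcl10 (57.7 and 209 CPM), against 1.17% of all genes. Cxcl10 had 44 and 150 UMIs there and passed the UMI limit through sGC ∆PC alone. No pathway gene was lower by that much, against 0.792% of all genes, while Cd74 was at 15271 and 10652 CPM. In ECs 4 of 25 were higher, against the 0.989% of all genes, but 1 when cells were thinned and 9 in ECs below the median macrophage-marker level. The 4 were Cd74 (13.1 and 241 CPM), Cxcl9 (116 and 619 CPM), Cxcl10 (0.567 and 92.9 CPM) and Ubd (3.40 and 134 CPM). Cd74, Cxcl10 and Ubd had 23, 1 and 6 UMIs in sGC Ctr ECs and passed the UMI limit through sGC ∆PC alone. The count of 4 is therefore not support for a difference. Of the 304 Cd74 UMIs in sGC ∆PC ECs, 114 and 70 were in the 2 leading cells. Fibroblasts had 2 of 26 higher, Ctss (29.5 and 88.5 CPM) and Cxcl9 (99.4 and 262 CPM), against 1.68% of all genes. Cancer cells had 7 of 36 higher, against 3.79% of all genes, with none lower in either class. The 7 were Cd74, Ctss, Cxcl9, Gbp4, Ubd, Cd83 and Cd86. Of these, Ubd (30 and 93 UMIs) passed the UMI limit through sGC ∆PC alone. Macrophage markers were also higher in sGC ∆PC, at 1.55% and 4.18% of the macrophage level in fibroblasts. In cancer cells they were at 0.979% and 2.25%. The part of macrophage RNA in Ctss and the other genes higher in these classes was not tested.

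Outside the set, the genes whose levels went most closely with the classical chains were sought over 17 class and state levels from both libraries, among 5853 genes. These points share libraries and gates, so the correlation is a description. Cd74 came first (Pearson r 0.98), followed by Pkib (0.96), Spint1 (0.96), Pip4k2a (0.94), Tnip3 (0.93), Rnase6 (0.93), Naaa (0.92), H2-Ob (0.91), Cst3 (0.91) and Htr7 (0.91). Ciita ranked 19th with r 0.90, and H2-Oa ranked 65th with 0.83.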

How the data were processed

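Single cells of LLC tumors were profiled with 10x Genomics 3′ chemistry, 1 library for each genotype. The authors aligned the reads to mm10 and counted UMIs with Cell Ranger 6.1.1, which discards reads that match several genes, and the deposited matrices hold raw counts per gene and cell. Barcodes with over 10% mitochondrial UMIs, or more than 3 median absolute deviations from the median in UMIs or genes, were removed. Cells were assigned to classes by summed marker counts per 10000 UMIs together with a minimum number of markers detected, and cells in several gates were set aside without a doublet caller, so doublets within a class remained. Counts were summed over the cells of a class and library. Exact Poisson, Clopper-Pearson and conditional binomial 95% intervals were computed in Python 3.11.15 with scipy 1.17.1. With 1 library in each group no test was run. For shares of cells, each cell was thinned to 2000 UMIs, and shallower cells were left out (547 and 3928 of those kept). Ratios between libraries were read for genes with at least 50 UMIs summed over both libraries and called at 2-fold. A gene low in a library can pass this limit through the other, so counts of such genes past 2-fold are not support for a difference. The scripts recovered known values in simulated data. Those data were independent counts drawn from class sums, so they do not cover UMIs that gather in a few cells. The genes named are the 8 members, a list of 36 pathway genes and the 10 genes most like the classical chains, and the members, lists and gates were chosen with earlier results of these data known. Alternatives were other filters and gate limits, unsupervised clusters, thinning, means over cells and cells without macrophage-marker UMIs, and, chosen after seeing the data, leaving out leading cells.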

Additional observations from a re-analysis of the deposited data

Results flagged for a closer look

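The log2 ratio of the summed H2-Aa, H2-Ab1 and H2-Eb1 level between the sGC ∆PC and sGC Ctr libraries was 0.7604 in macrophages and -0.3955 in dendritic cells, so the same comparison went in opposite directions in these 2 classes. The difference between the classes was not tested, because each condition is 1 library.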

How the results depend on the processing

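Of the single members in single classes, 319 values were recomputed for 30 ratios between the libraries: 232 moved by less than their counting interval, 87 by more, and none of the called ones changed sign. Leaving out a leading cell was chosen after seeing the data. The opposite directions in macrophages and dendritic cells held in every alternative that gave a value. In unsupervised clusters no cluster of sGC ∆PC was named dendritic or pericyte, so that alternative gave no value for them. The depth per cell, lower in sGC ∆PC, limits the reading of low members in small classes, and each value rests on 1 library. No paired analysis was possible because each group has 1 library. The values that moved beyond their interval follow, each after the value as reported, and the cause was not tested.

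The log2 ratio of the summed classical chains between the libraries in macrophages of 0.76 was 0.66 with gate limits halved, 0.85 with gate limits doubled, 0.35 with unsupervised clusters, 0.58 with cells thinned to 2000 UMIs, 0.53 with means over cells and 0.82 with values relative to the median gene. In dendritic cells the ratio of -0.40 was -0.24 with gate limits halved, -0.31 with gate limits doubled, -0.45 with cells of several gates kept, -0.29 with cells thinned to 2000 UMIs, -0.34 with means over cells and -0.36 with values relative to the median gene. In ECs the ratio of 3.39 was 1.93 with gate limits halved, 3.94 with cells of several gates kept, 2.91 with unsupervised clusters, 2.68 with cells thinned to 2000 UMIs, 1.90 with cells without a macrophage-marker UMI, 2.46 with the leading cell left out and 2.01 with the 2 leading cells left out. In fibroblasts the ratio of 0.18 was 1.11 with gate limits halved, -0.25 with gate limits doubled, 0.48 with cells thinned to 2000 UMIs, 0.52 with means over cells, 0.46 with cells below the median macrophage-marker level, 1.31 with cells without a macrophage-marker UMI, 0.75 with the leading cell left out and 0.97 with the 2 leading cells left out. In cancer cells the ratio of 1.43 was 1.38 with gate limits doubled, 2.25 with unsupervised clusters, 2.25 with cells thinned to 2000 UMIs, 2.24 with means over cells, 2.61 with cells without a macrophage-marker UMI and 1.47 with the 2 leading cells left out. For ECs of sGC Ctr the log2 of observed over carried level of -0.61 was 1.68 with gate limits halved, 0.33 with cells thinned to 2000 UMIs, 0.0104 with means over cells and 3.54 with cells below the median macrophage-marker level. The macrophage-marker level sets the carried level, so a rise of observed over carried in cells chosen by it, here and below, is in part built in. In sGC ∆PC ECs that value of 2.12 was 1.82 with gate limits halved, 1.72 with gate limits doubled, 1.63 with unsupervised clusters, 1.63 with means over cells, 4.72 with cells below the median macrophage-marker level and 1.06 with the leading cell left out. In sGC Ctr fibroblasts that value of 2.58 was 2.25 with gate limits halved, 2.01 with cells of several gates kept, 1.41 with unsupervised clusters, 3.20 with cells thinned to 2000 UMIs, 3.91 with cells below the median macrophage-marker level and 1.94 with the leading cell left out. In sGC ∆PC fibroblasts that value of 0.57 was 1.02 with gate limits halved, 0.73 with gate limits doubled, 0.38 with cells of several gates kept, -0.0592 with unsupervised clusters, 0.26 with cells thinned to 2000 UMIs, 0.20 with means over cells and 2.36 with cells below the median macrophage-marker level. In sGC Ctr cancer cells that value of 1.34 was 1.71 with gate limits halved, 1.55 with gate limits doubled, 1.13 with cells of several gates kept, 0.56 with unsupervised clusters, 1.22 with cells thinned to 2000 UMIs and 1.24 with means over cells. In sGC ∆PC cancer cells that value of 0.81 was 1.08 with gate limits halved, 1.07 with gate limits doubled, 0.70 with cells of several gates kept, 1.55 with unsupervised clusters, 0.85 with cells thinned to 2000 UMIs and 0.88 with means over cells. The log2 of H2-Ab1 over H2-Aa in sGC Ctr fibroblasts of 1.79 was 2.32 with gate limits halved, 1.37 with unsupervised clusters, 2.81 with cells below the median macrophage-marker level, 3.58 with cells without a macrophage-marker UMI and 2.64 with the leading cell left out. The log2 of H2-Ab1 over H2-Aa in sGC ∆PC fibroblasts of 1.66 was 1.19 with gate limits halved, 2.13 with unsupervised clusters, 0.84 with means over cells, 2.17 with cells below the median macrophage-marker level and 1.15 with cells without a macrophage-marker UMI. The log2 of dendritic over macrophage level in sGC Ctr of 3.76 was 3.73 with gate limits doubled, 3.69 with cells of several gates kept, 3.69 with unsupervised clusters, 3.43 with cells thinned to 2000 UMIs and 3.42 with means over cells. The log2 of dendritic over macrophage level in sGC ∆PC of 2.60 was 2.87 with gate limits halved, 2.57 with gate limits doubled, 2.49 with cells of several gates kept, 2.56 with cells thinned to 2000 UMIs and 2.55 with means over cells. The macrophage percent of all UMIs of the set in sGC Ctr of 36.2 was 36.9 with cells of several gates kept and 48.5 with unsupervised clusters. The macrophage percent of all UMIs of the set in sGC ∆PC of 37.2 was 38.7 with cells of several gates kept and 33.7 with unsupervised clusters. The dendritic percent of all UMIs of the set in sGC Ctr of 13.3 was 14.2 with cells of several gates kept and 32.3 with unsupervised clusters. The dendritic percent of all UMIs of the set in sGC ∆PC of 6.87 was 7.25 with cells of several gates kept. The count of pathway genes 2-fold higher in macrophages of 0 was 1 with gate limits doubled and 1 with cells thinned to 2000 UMIs. The count of pathway genes 2-fold higher in ECs of 4 was 8 with unsupervised clusters, 1 with cells thinned to 2000 UMIs, 7 with means over cells and 9 with cells below the median macrophage-marker level. The percent of sGC Ctr ECs with an H2-Ab1 UMI of 4.76 was 0 with cells thinned to 1000 UMIs and 28.8 with no thinning. The percent of sGC ∆PC ECs with an H2-Ab1 UMI of 7.94 was 24.3 with no thinning. The percent of sGC Ctr fibroblasts with an H2-Ab1 UMI of 12.6 was 41.0 with no thinning. The percent of sGC ∆PC fibroblasts with an H2-Ab1 UMI of 18.4 was 9.24 with cells thinned to 1000 UMIs and 37.8 with no thinning. The higher ratio of H2-Ab1 to H2-Aa in fibroblasts and the higher EC and cancer cell levels of sGC ∆PC kept their direction throughout.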
